A study of Mus musculus with 21 samples.

Results

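Cytochrome P450 family 2 is a large group of drug- and steroid-oxidising enzymes of mouse liver, and its RNA was followed here gene by gene in livers given carbon tetrachloride (CCl4) or thioacetamide (TAA) and in cultured hepatocytes. The members are all protein-coding genes whose symbol is Cyp2, a subfamily letter and a number, with Cyp2e1 left out. There were 47 members among the 54532 genes of the CCl4 and hepatocyte tables and 43 among the 34280 genes of the TAA table. The 47 fall into 12 subfamilies, with 4 Cyp2a, 5 Cyp2b, 15 Cyp2c, 8 Cyp2d, 8 Cyp2j and 1 each of Cyp2f, Cyp2g, Cyp2r, Cyp2s, Cyp2t, Cyp2u and Cyp2w. On mm10 the subfamilies lie in blocks. All 15 Cyp2c genes are on chromosome 19 between 39007019 and 44029208, the 8 Cyp2d genes on chromosome 15 between 82370527 and 82794294, the 8 Cyp2j genes on chromosome 4 between 96027534 and 96664154, and the Cyp2a, Cyp2b, Cyp2f, Cyp2g, Cyp2s and Cyp2t genes together on chromosome 7 between 25802475 and 27158668.

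RNA was sequenced from 21 mouse libraries in 7 groups of 3, in a study of STING, NLRP3 and hepatocyte death in liver fibrosis. In the CCl4 table, livers labelled Sting knockout and wild-type livers had received intraperitoneal CCl4, a hepatotoxin that P450 enzymes turn into a radical, and wild-type livers had received olive oil. The labels give 6 weeks for these groups and the design text 8 weeks. In the TAA table, livers labelled for deletion of Nlrp3 in hepatocytes and wild-type livers had all received intraperitoneal TAA, another hepatotoxin, for 8 weeks. In the hepatocyte table, all primary hepatocytes had received lipopolysaccharide (LPS, 1 µg/mL, 6 h) and the ionophore nigericin (10 µM, 30 min), and 3 of the 6 libraries had also received the NLRP3 inhibitor MCC950 (10 µM) from 2 h before. The Sting allele and the Cre line behind the Nlrp3 deletion are not given in the sources used here. Livers without TAA, oil-treated Sting knockout livers and unstimulated hepatocytes were not analysed here. No label states whether the 3 replicates of a group were different animals or cultures. The p-values therefore reflect library-to-library spread, which may be technical.

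Family 2 enzymes sit in the endoplasmic reticulum membrane, carry a haem group and insert an oxygen atom into their substrates with electrons passed on by P450 oxidoreductase (Por). Their substrates are drugs and toxins, steroid hormones, bile acids, vitamin D and fatty acids, and several Cyp2c and Cyp2j enzymes turn arachidonic acid into epoxides and hydroxy acids. Many of the genes are expressed mainly in hepatocytes, often in those around the central vein, and several differ between male and female mouse liver because the sexes secrete growth hormone in different patterns. Inflammation and liver injury are known to lower the RNA of many hepatic P450 genes.

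Libraries held 14353483 to 16684832 reads in the CCl4 table, 14883710 to 17157586 in the hepatocyte table and 32096879 to 68913793 counts in the TAA table. Levels are the deposited FPKM, read numbers scaled by the authors for gene length and library, which can be compared between genes. They were compared between groups within a table only. Sting1 RNA, named Tmem173 in the CCl4 table, was still present in the livers labelled Sting knockout, at 3.42, 1.98 and 5.28 FPKM, against 6.1, 5.15 and 4.74 FPKM in wild-type livers given CCl4. In whole liver Nlrp3 stood at 0.08, 0.37 and 0.25 FPKM in the livers labelled for its deletion in hepatocytes, against 0.15, 0.11 and 0.17 FPKM in the wild-type TAA livers. Replicate 3 of the wild-type CCl4 livers stood apart. It held Xist, the RNA of the inactive X chromosome, at 79.9 FPKM and the Y-linked Ddx3y at 0.0414 FPKM, whereas the other 20 libraries held Xist at no more than 0.08 FPKM and Ddx3y at 6.54 to 25.2 FPKM. Since some members differ by sex, CCl4 results that changed their call, or whose fold change moved by over 1.5 times, are also given without this library. Near-identical members can share reads. Of all 100-base windows of a member's transcript, 44.1% of those of Cyp2c40, 36.3% of Cyp2c69, 23.7% of Cyp2c67, 19.8% of Cyp2c68, 14.8% of Cyp2d10, 14.4% of Cyp2a5 and 11.2% of Cyp2a4 occur in another member, so the values of these genes are uncertain, while 23 members share none.

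Subfamilies c and d held most of the family's RNA in the CCl4 and hepatocyte tables, and subfamilies a and d in the TAA livers. Summed over all members, the family stood at 2346, 4443 and 1879 FPKM in the Sting-knockout-labelled CCl4 livers and 2637, 2154 and 2663 FPKM in wild-type livers given CCl4, against 5291, 5779 and 7256 FPKM in the oil livers. Every CCl4 liver of either genotype was below every oil liver. As a share of all reads the family took 0.537%, 0.823% and 0.511% in the Sting-knockout-labelled CCl4 livers and 0.656%, 0.561% and 0.664% in the wild-type CCl4 livers, against 1.1%, 1.11% and 1.27% in the oil livers, so the order did not rest on the deposited scaling. In the TAA table the summed level was 1963, 3265 and 2984 FPKM in the Nlrp3-deletion-labelled livers, against 1488, 1197 and 1227 FPKM in the wild-type TAA livers. These groups did not overlap either. The hepatocytes held 1878, 1744 and 1838 FPKM with MCC950, against 2036, 1726 and 1800 FPKM without it, and these overlapped.

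**Figure D1:**
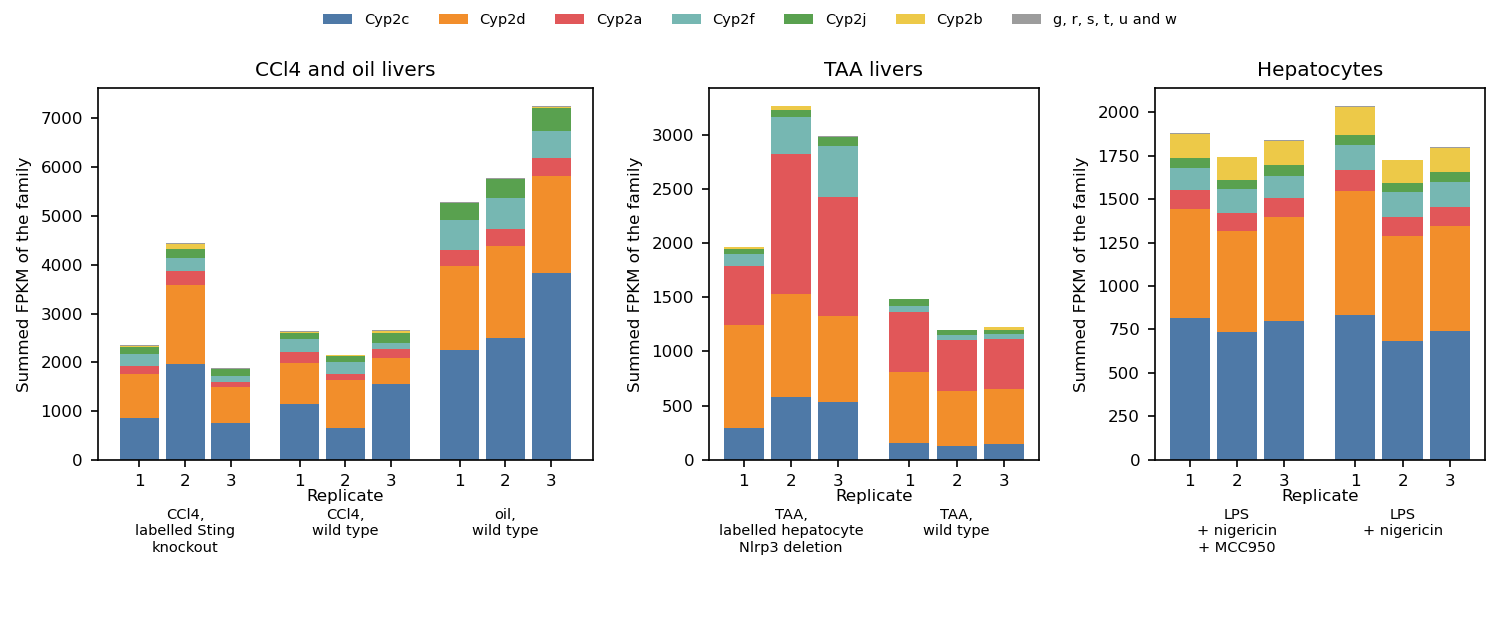
Summed FPKM of the members of each subfamily in every library (stacked bars, linear axis from 0), with 1 panel for each table. The family's bars are shorter in all 6 CCl4 livers than in the 3 oil livers, taller in the 3 Nlrp3-deletion-labelled livers than in the 3 wild-type TAA livers, and alike in height in the 6 hepatocyte libraries.

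The most abundant member differed between groups. In the oil livers it was Cyp2c29, an epoxygenase of arachidonic acid that rises with constitutive androstane receptor activity, at 801 ± 319 FPKM (SD, n = 3), ahead of Cyp2d9 at 676 ± 104 FPKM and Cyp2f2 at 599 ± 42.8 FPKM. Neighbours in that order lay within their spread. In the wild-type CCl4 livers Cyp2c70, which makes the muricholic acids of mouse bile, led at 420.4 ± 133 FPKM, and in the Sting-knockout-labelled CCl4 livers Cyp2d10, Cyp2d26 and Cyp2c70 stood within their spread of each other at 417 ± 290.1, 416 ± 93.8 and 402 ± 231 FPKM. In both TAA groups Cyp2a5, the coumarin hydroxylase, was the most abundant, at 661 ± 286 FPKM in the Nlrp3-deletion-labelled livers and 319 ± 57.3 FPKM in the wild-type TAA livers. In the hepatocytes Cyp2c70 and Cyp2d10 led, at 447 ± 26.8 and 341 ± 18.7 FPKM with MCC950, against 427 ± 53.5 and 346 ± 54.3 FPKM without it. At the other end, Cyp2b19, Cyp2b23, Cyp2c66, Cyp2j7, Cyp2j12 and Cyp2w1 had no read in any of the 9 libraries of the CCl4 table, and 11 members had none in the hepatocytes. Members under 1 FPKM in every library numbered 13 in the CCl4 table, 9 in the TAA table and 25 in the hepatocytes.

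The wild-type CCl4 library with Xist lay outside the range of the other 8 libraries of its table in several members known to differ between the sexes. Of 34 members that reached 1 FPKM in any of those libraries, 8 were higher in it than in all 8 others (Cyp2a4, Cyp2b9, Cyp2b13, Cyp2c40, Cyp2c65, Cyp2c68, Cyp2c69 and Cyp2s1) and 6 were lower (Cyp2d9, Cyp2d10, Cyp2d22, Cyp2d26, Cyp2d40 and Cyp2j9). Of all 14007 genes that reached 1 FPKM, 15.5% were higher in this library than in all 8 others and 20.9% lower, so lying outside the others was common in it. Cyp2c40, an arachidonic acid hydroxylase with female-biased expression, stood at 0.256, 1.67 and 0.152 FPKM in the Sting-knockout-labelled CCl4 livers and 0.729, 0.0772 and 73.6 FPKM in wild-type livers given CCl4, against 5.39, 6.57 and 5.65 FPKM in the oil livers, and the value of 73.6 FPKM is the library with Xist. Cyp2c69, its close relative, had 0, 0 and 0 FPKM in the Sting-knockout-labelled CCl4 livers and 0.0311, 0 and 34.2 FPKM in wild-type livers given CCl4, against 2, 1.77 and 2.12 FPKM in the oil livers, so that this library alone held most of its RNA. Cyp2b9, a female-predominant steroid hydroxylase, stood at 1.51, 7.05 and 0.0827 FPKM in the Sting-knockout-labelled CCl4 livers and 7.6, 0 and 37.9 FPKM in wild-type livers given CCl4, against 0.21, 0 and 0.449 FPKM in the oil livers. The other wild-type CCl4 library with Cyp2b9 well above the oil livers was replicate 1, which held no Xist. Cyp2d9, the male-predominant testosterone 16α-hydroxylase, stood at 109, 255 and 130.4 FPKM in the Sting-knockout-labelled CCl4 livers and 176, 267 and 21 FPKM in wild-type livers given CCl4, against 559, 710.1 and 759.7 FPKM in the oil livers, and was lowest in the library with Xist. These genes are described as they stood in single libraries, and no test was made. The promoters of 3 of these genes, Cyp2c40, Cyp2c69 and Cyp2d9, are shown because their RNA separated this library from the rest. They come from RefSeq on GRCm38.p6 (mm10) and run from 250 bases before to 50 after the annotated start, 5′ to 3′ on the gene's strand. Cyp2c40 lies at chr19:39812765-39813064 (minus strand), Cyp2c69 at chr19:39886720-39887019 (minus strand) and Cyp2d9 at chr15:82452127-82452426 (plus strand). Capitals mark TTGCNNAA, the C/EBP motif. It occurs in both Cyp2c promoters, at -5 in Cyp2c40 and -35 in Cyp2c69, and no motif searched was found in the Cyp2d9 window. Of 330 aligned positions of the Cyp2c promoters, 267 were identical (80.9%), with unmatched ends counted as differences. Their windows are offset against each other, so the part they share was closer than this figure.
Cyp2c40: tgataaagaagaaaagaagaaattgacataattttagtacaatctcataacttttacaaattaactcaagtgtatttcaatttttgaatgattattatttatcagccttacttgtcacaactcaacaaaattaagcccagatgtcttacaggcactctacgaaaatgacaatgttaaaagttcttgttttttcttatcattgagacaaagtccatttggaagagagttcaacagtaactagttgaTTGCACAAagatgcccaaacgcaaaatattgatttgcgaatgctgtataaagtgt
Cyp2c69: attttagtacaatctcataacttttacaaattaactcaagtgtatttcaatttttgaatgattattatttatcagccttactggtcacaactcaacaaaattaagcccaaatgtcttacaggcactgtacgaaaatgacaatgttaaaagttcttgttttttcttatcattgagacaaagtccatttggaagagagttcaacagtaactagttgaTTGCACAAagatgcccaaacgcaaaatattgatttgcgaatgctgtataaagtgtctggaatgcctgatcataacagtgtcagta
Cyp2d9: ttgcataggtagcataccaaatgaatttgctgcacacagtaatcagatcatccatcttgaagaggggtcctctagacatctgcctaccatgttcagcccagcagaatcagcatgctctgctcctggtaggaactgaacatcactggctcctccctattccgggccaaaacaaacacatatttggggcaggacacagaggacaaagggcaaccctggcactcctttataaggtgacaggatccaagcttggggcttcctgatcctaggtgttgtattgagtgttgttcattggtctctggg

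**Figure D2:**
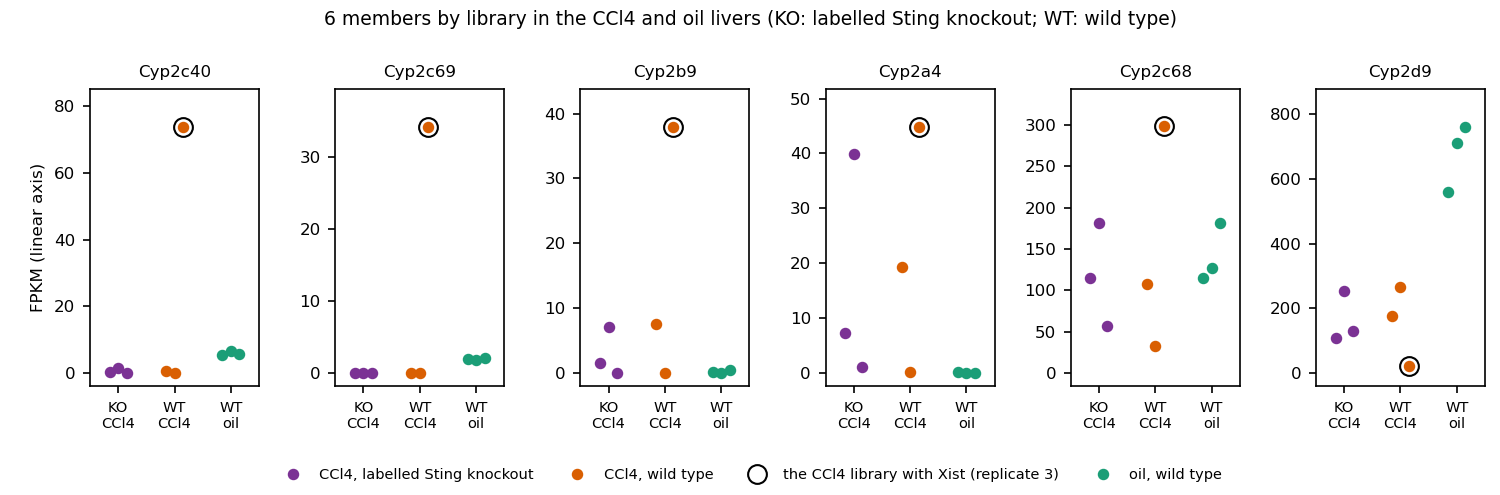
FPKM (linear axis) of 6 members in each library of the CCl4 table, 1 panel a gene, with the Sting-knockout-labelled CCl4, wild-type CCl4 and oil livers from left to right and the library with Xist circled. The circled point is the highest for Cyp2c40, Cyp2c69, Cyp2b9, Cyp2a4 and Cyp2c68 and the lowest for Cyp2d9.

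CCl4 against oil in wild-type liver asks how the toxin changed these RNAs. Cyp2a5, Cyp2c37, Cyp2c38, Cyp2c54, Cyp2c67, Cyp2c50 and 9 further members fell, by a log2 fold change of 1.31 to 4.0 in size, and no member passed the test upward. The test was limma on log2(FPKM + 1) over the 11511 genes that averaged 1 FPKM or more, called at a Benjamini-Hochberg adjusted p under 0.05, and these fold changes understate those of low genes. Of the 47 members, 29 were tested. Of these, 15 were called lower, against 6.15% of all genes tested, and 0 were called higher, against 9.19%. The median log2 fold change was -1.31 over the members tested and -0.08 over all genes. By subfamily, members called lower were 1 of 4 Cyp2a, 0 of 2 Cyp2b, 7 of 12 Cyp2c, 3 of 5 Cyp2d, 2 of 3 Cyp2j and the only Cyp2f and Cyp2u genes tested. Of the 15, 9 were called under all 11 alternatives tried (Cyp2a5, Cyp2c23, Cyp2c37, Cyp2c38, Cyp2c50, Cyp2c54, Cyp2c67, Cyp2j5 and Cyp2u1). Without the library with Xist 13 were called lower, 12 of them among the 15, against 463 of all 11407 genes tested. Groups said below not to overlap were judged on FPKM. The share of all genes without overlap was not counted for CCl4 against oil. Cyp2c38 averaged under 1 FPKM in both CCl4 groups and entered the test only through the oil livers. Cyp2a4, Cyp2a22 and Cyp2b9, under 1 FPKM in oil, entered only through the CCl4 livers. Cyp2c40 and Cyp2c69 averaged under 1 FPKM in the Sting-knockout-labelled livers. Among the wild-type CCl4 livers they exceeded 1 FPKM only in the library with Xist. The tests of these genes carry those limits. In bulk liver, fewer hepatocytes and less RNA per hepatocyte cannot be told apart.

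In subfamily a the fall was that of Cyp2a5 alone. Cyp2a5, which hydroxylates coumarin and nicotine, stood at 2.91, 25 and 2.17 FPKM in the Sting-knockout-labelled CCl4 livers and 32.9, 5.99 and 2.91 FPKM in wild-type livers given CCl4, against 168, 159 and 140.1 FPKM in the oil livers (log2 fold change -4.0 ± 0.85 SE, limma adjusted p = 0.0104 in wild type). All 6 CCl4 livers were far below the 3 oil livers, and without the library with Xist the log2 fold change was -3.34 (limma adjusted p = 0.0375). Cyp2a4, a testosterone 15α-hydroxylase that is nearly the same in sequence, lay on the other side of its oil level, with 7.27, 39.9 and 1.1 FPKM in the Sting-knockout-labelled CCl4 livers and 19.3, 0.302 and 44.8 FPKM in wild-type livers given CCl4, against 0.227, 0 and 0.108 FPKM in the oil livers (log2 fold change 3.27 ± 1.23 SE, limma adjusted p = 0.106 in wild type). Every CCl4 liver was above every oil liver, by little in replicate 2 of the wild type, and Cyp2a4 did not pass the test. Having entered it only through the CCl4 livers, it was called higher by edgeR on the reads recovered, and by limma without that replicate (log2 fold change 4.78, limma adjusted p = 0.00938). Without the library with Xist its log2 fold change was 2.22 (limma adjusted p = 0.307). Cyp2a12, a steroid and bile acid hydroxylase, stood at 154, 222 and 98.5 FPKM in the Sting-knockout-labelled CCl4 livers and 169.5, 128 and 132 FPKM in wild-type livers given CCl4, against 169.9, 198 and 233 FPKM in the oil livers and did not pass the test (log2 fold change -0.48 ± 0.34 SE, limma adjusted p = 0.403). Cyp2a22, at most 3.12 FPKM, was not called either (0.50). The promoters of the Cyp2a4 and Cyp2a5 genes are shown because RNAs with nearly the same upstream sequence lay on opposite sides of their oil levels. Cyp2a5 lies at chr7:26835089-26835388 and Cyp2a4 at chr7:26306942-26307241, both on the plus strand, and 294 of 301 aligned positions were identical (97.7%). Capitals mark the C/EBP motif TTGCNNAA and, near the end, the nuclear receptor half-site AGGTCA on the opposite strand, both present in each gene.
Cyp2a5: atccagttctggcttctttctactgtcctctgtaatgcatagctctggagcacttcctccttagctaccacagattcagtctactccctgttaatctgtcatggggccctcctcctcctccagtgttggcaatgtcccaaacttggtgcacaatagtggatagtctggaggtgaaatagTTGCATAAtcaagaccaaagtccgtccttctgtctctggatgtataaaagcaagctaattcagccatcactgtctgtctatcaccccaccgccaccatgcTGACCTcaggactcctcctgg
Cyp2a4: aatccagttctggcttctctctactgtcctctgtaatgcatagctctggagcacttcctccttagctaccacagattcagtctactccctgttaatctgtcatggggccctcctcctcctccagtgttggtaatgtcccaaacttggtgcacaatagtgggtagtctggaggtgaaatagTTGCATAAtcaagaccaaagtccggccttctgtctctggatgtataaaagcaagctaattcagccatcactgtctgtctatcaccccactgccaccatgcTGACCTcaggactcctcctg

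Subfamily b did not pass the test in either direction. Cyp2b10, the classic phenobarbital-induced gene, stood at 9.77, 90.3 and 9.2 FPKM in the Sting-knockout-labelled CCl4 livers and 26.2, 16.5 and 11.5 FPKM in wild-type livers given CCl4, against 7.12, 10.9 and 20.7 FPKM in the oil livers (log2 fold change 0.51 ± 0.74 SE, limma adjusted p = 0.731 in wild type). Replicate 2 of the Sting-knockout-labelled livers was far above all others, and the wild-type CCl4 and oil livers overlapped. For Cyp2b9, with the values given above, limma gave a log2 fold change of 2.53 ± 1.09 (SE, adjusted p = 0.156), and without the library with Xist 1.28 (adjusted p = 0.438). It too entered the test only through the CCl4 livers, and was called higher by edgeR, and by limma without replicate 2 of the wild-type CCl4 livers (log2 fold change 3.92, limma adjusted p = 0.0101). Cyp2b13 reached at most 1.92 FPKM, in the library with Xist.

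Subfamily c held the most members called. Cyp2c37, which makes hydroxy acids from arachidonic acid, stood at 6.54, 36.7 and 6.89 FPKM in the Sting-knockout-labelled CCl4 livers and 19.1, 2.84 and 36.7 FPKM in wild-type livers given CCl4, against 191, 192 and 318 FPKM in the oil livers (log2 fold change -3.99 ± 0.81 SE, limma adjusted p = 0.0081 in wild type). Cyp2c38, an epoxygenase, stood at 0.121, 0.162 and 0.036 FPKM in the Sting-knockout-labelled CCl4 livers and 0.422, 0 and 0.131 FPKM in wild-type livers given CCl4, against 9.25, 8.98 and 15.1 FPKM in the oil livers (log2 fold change -3.33 ± 0.23 SE, limma adjusted p = 3.81e-05), and passed the expression filter only through the oil livers. For both genes no CCl4 liver came near the lowest oil liver, and without the library with Xist the log2 fold change of Cyp2c37 was -4.69 (limma adjusted p = 0.00576). Cyp2c54, an epoxygenase whose gene neighbours Cyp2c37 on chromosome 19, stood at 31.9, 65.3 and 47.2 FPKM in the Sting-knockout-labelled CCl4 livers and 67.2, 16.9 and 89.7 FPKM in wild-type livers given CCl4, against 274, 257 and 432 FPKM in the oil livers (log2 fold change -2.71 ± 0.55 SE, limma adjusted p = 0.00834). Cyp2c50, another epoxygenase, stood at 85.2, 145 and 95.6 FPKM in the Sting-knockout-labelled CCl4 livers and 152, 44 and 136 FPKM in wild-type livers given CCl4, against 373, 467 and 721 FPKM in the oil livers (log2 fold change -2.36 ± 0.48 SE, limma adjusted p = 0.0082). Cyp2c67 stood at 44.8, 55.2 and 25.5 FPKM in the Sting-knockout-labelled CCl4 livers and 32.4, 14.7 and 44.8 FPKM in wild-type livers given CCl4, against 167, 182 and 231 FPKM in the oil livers (log2 fold change -2.74 ± 0.42 SE, limma adjusted p = 0.00191). In these 3 genes too every CCl4 liver was below every oil liver. However, 23.7% of the windows of Cyp2c67 are shared with other members, most often with Cyp2c69 (14.3%). Its sum with Cyp2c68 overlapped between the wild-type CCl4 and oil livers, but leaves Cyp2c69 out. Cyp2c23, an epoxygenase known also from kidney, stood at 101, 88.8 and 88.7 FPKM in the Sting-knockout-labelled CCl4 livers and 64.2, 65.5 and 85.8 FPKM in wild-type livers given CCl4, against 159, 166 and 214 FPKM in the oil livers (log2 fold change -1.31 ± 0.26 SE, limma adjusted p = 0.00773). The CCl4 and oil livers did not overlap. The promoter of Cyp2c37, shown for the largest fall among the abundant Cyp2c genes, lies at chr19:39992174-39992473 on the plus strand, with the C/EBP motif in capitals, here found on the opposite strand; it was 86.6% identical to that of Cyp2c50.
Cyp2c37: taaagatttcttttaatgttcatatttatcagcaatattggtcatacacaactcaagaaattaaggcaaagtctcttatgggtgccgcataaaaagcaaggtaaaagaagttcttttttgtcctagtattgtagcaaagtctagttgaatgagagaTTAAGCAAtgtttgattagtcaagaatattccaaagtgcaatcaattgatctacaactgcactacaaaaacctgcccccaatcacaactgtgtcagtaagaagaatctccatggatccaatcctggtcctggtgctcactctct

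The other abundant Cyp2c genes behaved differently from each other. Cyp2c29 stood at 189, 709 and 182 FPKM in the Sting-knockout-labelled CCl4 livers and 293, 159 and 181 FPKM in wild-type livers given CCl4, against 566, 673 and 1164 FPKM in the oil livers (log2 fold change -1.90 ± 0.53 SE, limma adjusted p = 0.0362 in wild type). The wild-type CCl4 and oil livers did not overlap, but replicate 2 of the Sting-knockout-labelled livers lay inside the oil range, and without the wild-type library with Xist the limma adjusted p was 0.0939 at a log2 fold change of -1.82. With the replicate number as a block it was 0.0502. Cyp2c70 stood at 282, 669 and 256 FPKM in the Sting-knockout-labelled CCl4 livers and 388, 307 and 566 FPKM in wild-type livers given CCl4, against 386, 408 and 534 FPKM in the oil livers and overlapped between groups (log2 fold change -0.10 ± 0.41 SE, limma adjusted p = 0.909). Cyp2c68 stood at 115, 182 and 57.1 FPKM in the Sting-knockout-labelled CCl4 livers and 107, 32.6 and 299 FPKM in wild-type livers given CCl4, against 115, 127 and 181 FPKM in the oil livers and overlapped as well (log2 fold change -0.44 ± 0.69 SE, limma adjusted p = 0.749). The value of 299 FPKM is the library with Xist, and without it the log2 fold change was -1.21 (limma adjusted p = 0.222). Cyp2c55, which makes hydroxy acids from arachidonic acid, was between 3.24 and 13.3 FPKM in all 9 libraries and was not called (log2 fold change 0.46 ± 0.45 SE, limma adjusted p = 0.575). Cyp2c40 was not called with all libraries (log2 fold change -0.40 ± 1.22 SE, limma adjusted p = 0.877). Without the library with Xist it was lower, with a log2 fold change of -2.33 and a limma adjusted p of 0.00388. In that fit it passed the expression filter only through the oil livers. The remaining wild-type CCl4 livers averaged 0.403 FPKM and the Sting-knockout-labelled livers 0.693 FPKM. Cyp2c69, with the values given above, was not called (0.16). Cyp2c39 and Cyp2c65 were low and were not tested.

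In subfamily d, 3 of 5 genes tested fell. Cyp2d9, with the values given above, was lower (log2 fold change -2.73 ± 0.77 SE, limma adjusted p = 0.0363), and without the library with Xist its log2 fold change was -1.62 (limma adjusted p = 0.0337), so the fall was smaller but still called. Cyp2d22, often set beside human CYP2D6, stood at 28.6, 40.9 and 21.8 FPKM in the Sting-knockout-labelled CCl4 livers and 39.5, 27.1 and 17.3 FPKM in wild-type livers given CCl4, against 73.1, 72.8 and 72.1 FPKM in the oil livers (log2 fold change -1.42 ± 0.33 SE, limma adjusted p = 0.0163 in wild type). The oil livers were nearly equal, and all CCl4 livers were below them. Cyp2d40 stood at 47.2, 76.4 and 32.7 FPKM in the Sting-knockout-labelled CCl4 livers and 22, 38.1 and 19.6 FPKM in wild-type livers given CCl4, against 49, 78.6 and 75 FPKM in the oil livers (log2 fold change -1.34 ± 0.37 SE, limma adjusted p = 0.0344 in wild type). The Sting-knockout-labelled livers overlapped the oil livers here, and without the library with Xist the wild-type difference was no longer called (log2 fold change -1.16, limma adjusted p = 0.101). Cyp2d10 stood at 265, 752 and 235 FPKM in the Sting-knockout-labelled CCl4 livers and 217, 280.1 and 204 FPKM in wild-type livers given CCl4, against 517, 514 and 587 FPKM in the oil livers, the wild-type groups did not overlap, and the test was not passed (log2 fold change -1.21 ± 0.42 SE, limma adjusted p = 0.0821). Cyp2d26, the other abundant member, stood at 442, 494 and 312 FPKM in the Sting-knockout-labelled CCl4 livers and 404, 375 and 264 FPKM in wild-type livers given CCl4, against 512, 514 and 491 FPKM in the oil livers (log2 fold change -0.56 ± 0.31 SE, limma adjusted p = 0.268). The wild-type CCl4 and oil livers did not overlap, and the gene did not pass the test.

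Outside the large subfamilies, Cyp2f2, the naphthalene-activating enzyme, stood at 247, 258 and 126 FPKM in the Sting-knockout-labelled CCl4 livers and 261, 239 and 138 FPKM in wild-type livers given CCl4, against 615, 632 and 551 FPKM in the oil livers (log2 fold change -1.54 ± 0.37 SE, limma adjusted p = 0.0189 in wild type). All CCl4 livers were below the oil livers, yet without the library with Xist the limma adjusted p was 0.0579 at a log2 fold change of -1.26. Cyp2j5, an arachidonic acid epoxygenase, stood at 138, 169 and 123 FPKM in the Sting-knockout-labelled CCl4 livers and 101, 105 and 177 FPKM in wild-type livers given CCl4, against 316, 345 and 433 FPKM in the oil livers (log2 fold change -1.54 ± 0.31 SE, limma adjusted p = 0.00823). Cyp2j6, of the same block on chromosome 4, stood at 14.1, 25 and 10.9 FPKM in the Sting-knockout-labelled CCl4 livers and 12.5, 9.6 and 15.7 FPKM in wild-type livers given CCl4, against 29.5, 32.4 and 39 FPKM in the oil livers (log2 fold change -1.36 ± 0.31 SE, limma adjusted p = 0.015). Neither gene overlapped between CCl4 and oil, and Cyp2j9, at most 1.52 FPKM, was not called (-0.16). Cyp2u1, a fatty acid hydroxylase, stood at 1.46, 3.49 and 2.09 FPKM in the Sting-knockout-labelled CCl4 livers and 0.409, 2.45 and 0.862 FPKM in wild-type livers given CCl4, against 6.67, 4.71 and 5.13 FPKM in the oil livers (log2 fold change -1.63 ± 0.33 SE, limma adjusted p = 0.00823), with every CCl4 liver below every oil liver. Cyp2r1, the vitamin D 25-hydroxylase, stood at 11.4, 10.4 and 8.07 FPKM in the Sting-knockout-labelled CCl4 livers and 6.06, 8.4 and 13.1 FPKM in wild-type livers given CCl4, against 10.4, 10 and 18.2 FPKM in the oil livers and overlapped (log2 fold change -0.45 ± 0.31 SE, limma adjusted p = 0.382). Of the genes too low to test, Cyp2g1, known from olfactory mucosa, stood at 0, 0 and 0.0241 FPKM in the Sting-knockout-labelled CCl4 livers and 0.718, 0.0244 and 0.276 FPKM in wild-type livers given CCl4, against 0.674, 0.677 and 0.873 FPKM in the oil livers. Cyp2s1, known from epithelia outside the liver, stood at 0.199, 0.47 and 1.6 FPKM in the Sting-knockout-labelled CCl4 livers and 0.279, 0.34 and 1.84 FPKM in wild-type livers given CCl4, against 0.266, 0.232 and 0.19 FPKM in the oil livers. Cyp2t4 did not exceed 0.345 FPKM and Cyp2w1 was at 0 throughout. Cyp2d34, Cyp2j11 and Cyp2j13 did not exceed 0.0566 FPKM in any library of the CCl4 table, and were at most 0.05 FPKM in the TAA livers and without a read in the hepatocytes.

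**Figure D3:**
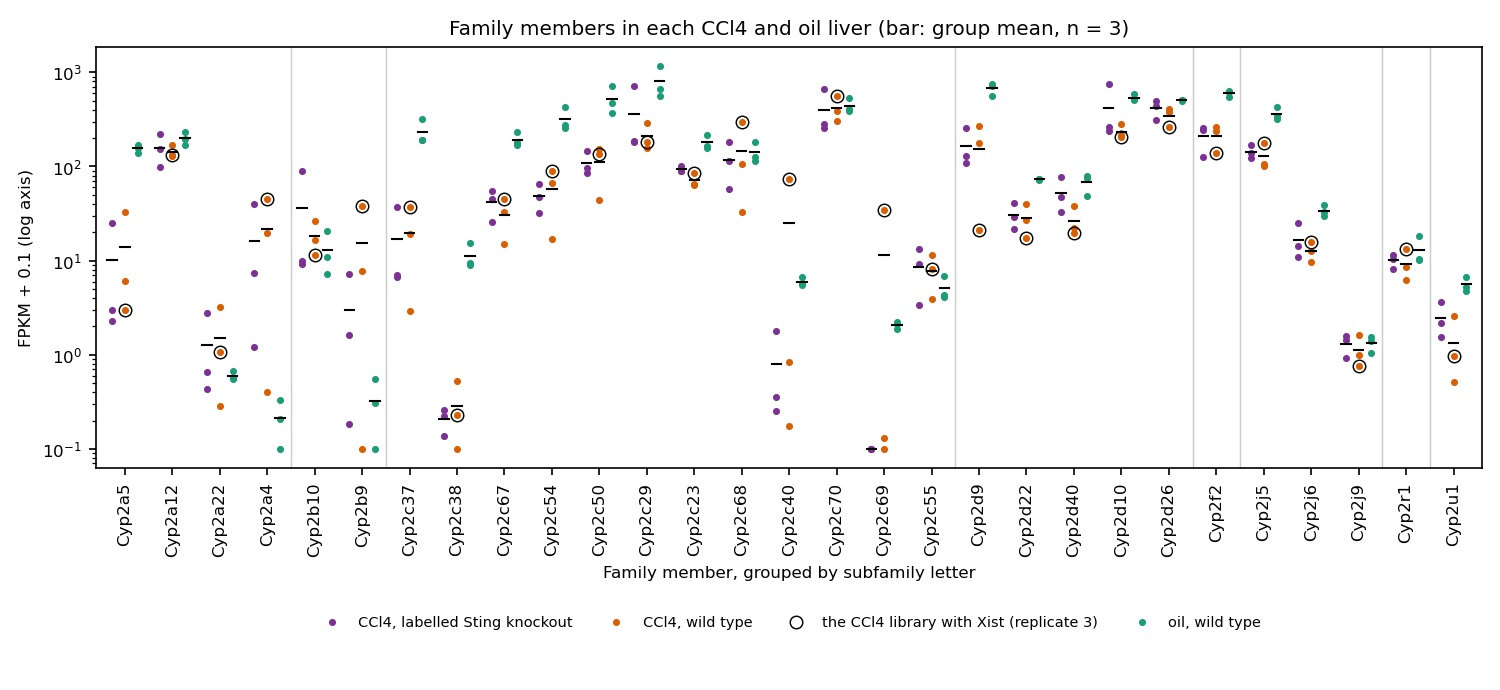
FPKM + 0.1 (log axis) of the 29 tested members in each library of the CCl4 table, for the Sting-knockout-labelled CCl4, wild-type CCl4 and oil livers, with a bar at each group's mean and the library with Xist circled. Cyp2a5, Cyp2c37 and Cyp2c38 show the widest gap below the oil livers, and Cyp2a4, Cyp2b9, Cyp2c40 and Cyp2c69 the widest spread among CCl4 livers.

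The genes that feed these enzymes and control them were read from lists, by the same limma test. Of 6 genes listed as P450 electron donors or haem-binding partners, 3 fell. They were the cytochrome b5 Cyb5b (-1.21 ± 0.28, limma adjusted p = 0.0173) and the haem-binding partners Pgrmc1 and Pgrmc2 (-1.25 and -1.05). Por, which donates the electrons, was not called (0.06 ± 0.44, SE, limma adjusted p = 0.95). Of 12 genes of haem synthesis and breakdown, 1 was called, the haem oxygenase Hmox1, which rose (2.16 ± 0.41, limma adjusted p = 0.0057). Of 24 transcription factors known to act on family members, 7 fell and 0 rose, among them Cebpa (-1.93), Nr0b2 (-1.71), the bile acid receptor Nr1h4 (-1.15) and the constitutive androstane receptor Nr1i3 (-0.94). Of 9 genes of growth hormone control, the receptor Ghr (-1.45) and Igfals (-1.53) fell. Of 9 partners in fatty acid and drug oxidation, 3 fell, namely the epoxide hydrolase Ephx2 (-1.97) and the aldehyde oxidases Aox1 (-1.21) and Aox3 (-2.22). Of 7 other P450 genes 2 fell, Cyp3a25 (-1.35) and Cyp2e1 (-4.31), the enzyme best known for activating CCl4. Of 11 inflammatory genes tested (cytokines, their receptors and targets, and acute-phase genes), 2 rose, the acute-phase products Saa2 (3.32) and Lcn2 (4.79). The medians over each list's tested genes ran from -1.11 for the other P450 genes to 0.76 for the inflammatory genes, against -0.08 over all genes.

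Several lists of cell type markers also differed between the CCl4 and oil livers. Summed over their lists, pericentral hepatocyte markers stood at 553 to 949 FPKM in the Sting-knockout-labelled CCl4 livers and 441 to 929 FPKM in wild-type livers given CCl4, against 1660.5 to 2147 FPKM in the oil livers, and 5 of 8 tested fell in wild type, including Glul (-3.46) and Oat (-4.02). General hepatocyte markers stood at 47420.1 to 116611 FPKM in the Sting-knockout-labelled and 47029.9 to 60940.3 FPKM in the wild-type CCl4 livers, against 61685 to 77818 FPKM in the oil livers, and 1 of 9 fell in wild type. Macrophage markers stood at 691 to 983 FPKM in the Sting-knockout-labelled and 771 to 1083 FPKM in the wild-type CCl4 livers, against 176 to 254 FPKM in the oil livers, with 8 of 10 higher in wild type. Stellate and myofibroblast markers stood at 281 to 519 FPKM in the Sting-knockout-labelled and 225 to 466 FPKM in the wild-type CCl4 livers, against 50.1 to 63.3 FPKM in the oil livers, also with 8 of 10 higher. Neutrophil markers stood at 76.8 to 183 FPKM in the Sting-knockout-labelled and 62.9 to 135 FPKM in the wild-type CCl4 livers, against 5.35 to 16.4 FPKM in the oil livers, with 4 of 4 tested higher in wild type. Periportal hepatocyte markers stood at 1362 to 2478 FPKM in the Sting-knockout-labelled and 2111 to 3311 FPKM in the wild-type CCl4 livers, against 3834 to 3904 FPKM in the oil livers, with 1 of 10 higher (Ctsc) and 2 lower (Hal and Gls2) in wild type. Cholangiocyte markers stood at 131 to 270.5 FPKM in the Sting-knockout-labelled and 57.3 to 288 FPKM in the wild-type CCl4 livers, against 29.1 to 36.3 FPKM in the oil livers, with 1 of 4 tested higher (Spp1). Of the remaining lists, 1 of 8 sinusoidal endothelium markers (Lyve1) and 1 of 3 lymphocyte markers tested (Cd79b) were higher. No marker of these lists was at 0 in a whole group. Their part in the members' fall was not tested.

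The same comparison in livers labelled Sting knockout, CCl4 against the same wild-type oil livers, mixes genotype with toxin and shares its oil libraries with the wild-type comparison. Of 29 members tested, 11 were called lower, against 5.91% of all genes, and 0 higher, against 8%, with a median log2 fold change of -0.99 over the members tested and -0.04 over all genes. The 11, with their values given above, were Cyp2a5 (-4.51 ± 0.85), Cyp2c37 (-4.12 ± 0.81), Cyp2c38 (-3.42 ± 0.23), Cyp2c54 (-2.73 ± 0.55), Cyp2c67 (-2.24 ± 0.42), Cyp2c50 (-2.23 ± 0.48), Cyp2f2 (-1.57 ± 0.37), Cyp2j5 (-1.34 ± 0.31), Cyp2d22 (-1.28 ± 0.33), Cyp2j6 (-1.04 ± 0.31) and Cyp2c23 (-0.93 ± 0.26), each as log2 fold change ± SE. Their limma adjusted p ranged from 2.91e-05 for Cyp2c38, which entered the test only through the oil livers, to 0.0498 for Cyp2j6. Cyp2c29, Cyp2d9, Cyp2d40 and Cyp2u1, called in wild type, were not called here, at log2 fold changes of -1.39, -2.12, -0.42 and -0.99. Replicate 2 of these livers was the highest of the 3 in most abundant members, and without it 14 members were called lower, with Cyp2c29, Cyp2d10 and Cyp2u1 added. In that fit the median log2 fold change was -1.29 over the members and -0.05 over all 11499 genes tested. Cyp2a5, Cyp2c37, Cyp2c38, Cyp2c54 and Cyp2c67 were called under all 11 alternatives.

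**Figure D4:**
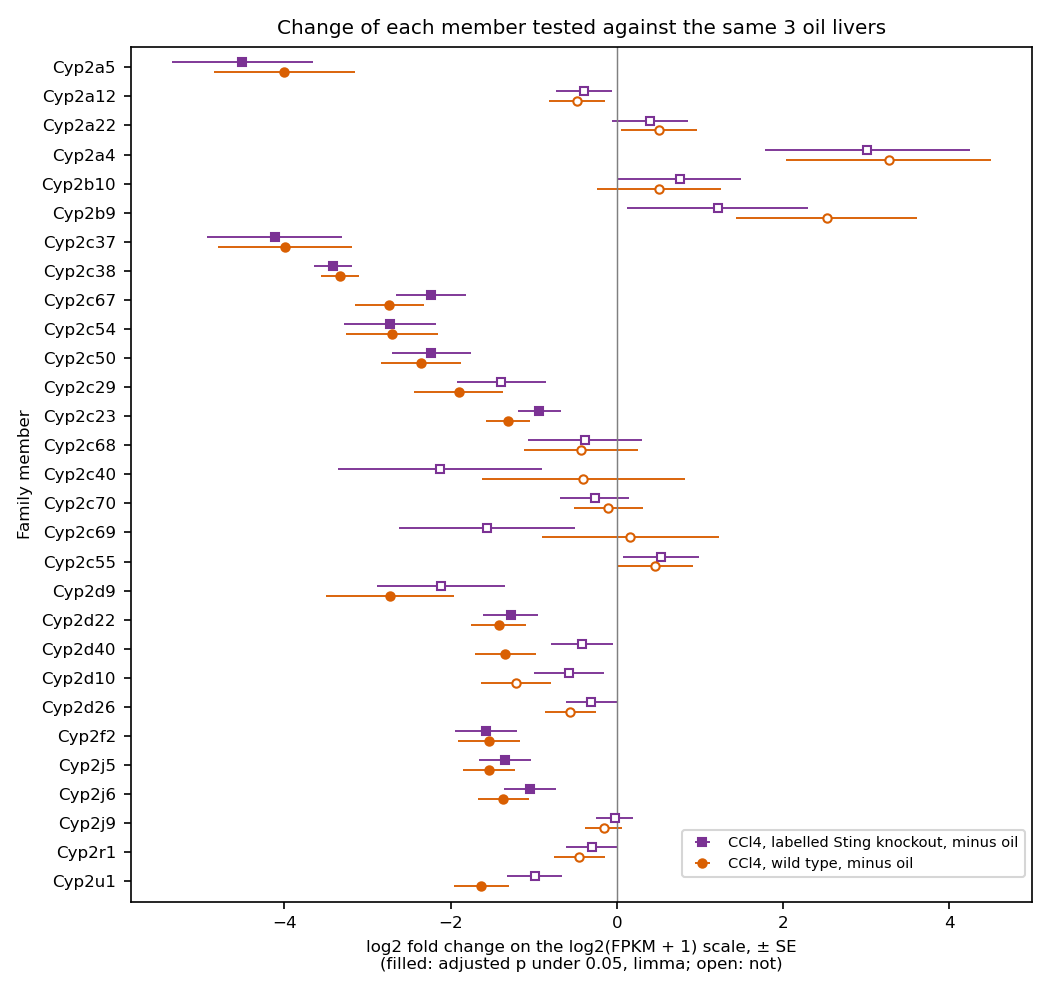
Log2 fold change on the log2(FPKM + 1) scale, with SE bars, of the 29 tested members for Sting-knockout-labelled CCl4 minus oil livers (squares) and wild-type CCl4 minus oil livers (circles), filled where called. Most points lie left of 0, furthest for Cyp2a5, Cyp2c37 and Cyp2c38, and those right of 0, such as Cyp2a4, are all open.

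The difference between genotypes was then tested itself, in CCl4 livers labelled Sting knockout against wild-type CCl4 livers. No member was called, and no gene of the 11511 was called in either direction (0% higher and 0% lower), by limma or by edgeR on the reads recovered. At an unadjusted p under 0.05 there were 366 genes and 1 member, Cyp2d40, with a log2 fold change of 0.92 ± 0.37 (SE, unadjusted p = 0.0318, limma adjusted p = 0.761). The median was 0.13 over the members tested and 0.02 over all genes. Of the 29 members tested, 1 did not overlap between the groups, against 5.13% of all genes tested, and this was Cyp2c23 (0.38 ± 0.26, limma adjusted p = 0.761). The low Cyp2g1, not tested, all but overlapped. Its highest value in the Sting-knockout-labelled livers was 0.0241 FPKM and its lowest in the wild-type CCl4 livers 0.0244 FPKM. The spread within groups was wide: Cyp2c29, Cyp2d10 and Cyp2b10 were each several times higher in replicate 2 of the Sting-knockout-labelled livers than in its other two libraries. The sign of Cyp2d9 depended on the library with Xist. Its log2 fold change was 0.61 with that library and -0.49 without it. In the same order, the sign also turned for Cyp2c40 (-1.72 and 0.20), Cyp2a4 (-0.26 and 0.79) and Cyp2c37 (-0.12 and 0.57). Cyp2b9 (-1.31 and -0.07), Cyp2c68 (0.06 and 0.83) and Cyp2a5 (-0.51 and -1.17) moved by over 1.5 times. Smaller changes of sign were those of Cyp2b10, Cyp2c54, Cyp2c70, Cyp2d22 and Cyp2j9. Cyp2c69 was not tested without this library. None of these members was called either way. Simulated 2-fold and 4-fold changes with this spread, placed in a small part of all genes, were recovered in 2% and 71% of the changed genes. In that setting most 2-fold differences were not called. Recovery with many genes changed was not simulated.

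Under TAA, Cyp2c29, Cyp2c50, Cyp2c54 and Cyp2j5 were higher in the livers labelled for hepatocyte Nlrp3 deletion than in the wild-type TAA livers, by a log2 fold change of 1.51 to 2.76. Of 43 members, 36 passed the count filter and were tested with edgeR's quasi-likelihood test over 18619 genes. Of these, 4 were called higher, against 1.37% of all genes, and 0 lower, against 0.36%. At an unadjusted p under 0.05 there were 21 of 36 members and 5375 of 18619 genes. The edgeR adjusted p of the 4 lay between 0.0487 and 0.05, and that of Cyp2c68, Cyp2d12, Cyp2c37 and Cyp2f2 between 0.0501 and 0.0516, so the threshold ran through a group of close values. Fold changes are from counts scaled by TMM factors, with a median of -0.04 over all genes and 0.82 over the members tested. Deposited FPKM put the median of all genes at 0.33, so ratios of the FPKM values below are larger than the fold changes beside them. Overlap between groups was judged on these FPKM too, so part of a gap upward can come from the scaling. The share of all genes without overlap was not counted here.

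Cyp2c29 stood at 19.9, 83.6 and 61.7 FPKM in the Nlrp3-deletion-labelled livers, against 7.82, 4 and 7.01 FPKM in the wild-type TAA livers (log2 fold change 2.76 ± 0.46 SE, edgeR adjusted p = 0.0487). Cyp2c50 stood at 23.1, 99.5 and 82.4 FPKM in the Nlrp3-deletion-labelled livers, against 7.94, 7.31 and 11 FPKM in the wild-type TAA livers (log2 fold change 2.56 ± 0.47 SE, edgeR adjusted p = 0.0487). In both genes replicate 1 of the Nlrp3-deletion-labelled livers was the lowest of its group and still above every wild-type library. Cyp2c54 stood at 29, 62.7 and 65.2 FPKM in the Nlrp3-deletion-labelled livers, against 15.3, 12.1 and 14.5 FPKM in the wild-type TAA livers (log2 fold change 1.51 ± 0.29 SE, edgeR adjusted p = 0.05, just under the threshold before rounding). Cyp2j5 stood at 27, 45.6 and 64 FPKM in the Nlrp3-deletion-labelled livers, against 12.3, 10.3 and 8.29 FPKM in the wild-type TAA livers (log2 fold change 1.74 ± 0.33 SE, edgeR adjusted p = 0.0492). Neither overlapped between groups. Cyp2f2, whose level is known to be highest near the portal vein in mouse liver, stood at 104, 344 and 465 FPKM in the Nlrp3-deletion-labelled livers, against 59.3, 47.8 and 47.9 FPKM in the wild-type TAA livers, without overlap, and missed the threshold (log2 fold change 2.16 ± 0.47 SE, edgeR adjusted p = 0.0516). Cyp2c37 stood at 17.8, 44.8 and 35.6 FPKM in the Nlrp3-deletion-labelled livers, against 6.39, 6.58 and 11.4 FPKM in the wild-type TAA livers, again without overlap and not called (log2 fold change 1.62 ± 0.35 SE, edgeR adjusted p = 0.0515). Cyp2c68 stood at 79, 103 and 100.1 FPKM in the Nlrp3-deletion-labelled livers, against 42, 34.8 and 41.6 FPKM in the wild-type TAA livers (log2 fold change 0.87 ± 0.18 SE, edgeR adjusted p = 0.0501). Its wild-type libraries were nearly equal, and all were below the Nlrp3-deletion-labelled livers. The other Cyp2c members tested had log2 fold changes from 0.44 for Cyp2c67 to 1.87 for Cyp2c69, all positive and none called by edgeR. DESeq2 called Cyp2c38, Cyp2c39, Cyp2c40, Cyp2c55 and Cyp2c70 higher among them, at DESeq2 adjusted p from 0.00195 to 0.0182.

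Other abundant members were not called. Cyp2a5 stood at 334, 862 and 789 FPKM in the Nlrp3-deletion-labelled livers, against 365, 336 and 254 FPKM in the wild-type TAA livers (log2 fold change 0.64 ± 0.36 SE, edgeR adjusted p = 0.276). Cyp2a4 stood at 86.2, 267 and 157 FPKM in the Nlrp3-deletion-labelled livers, against 101, 63.8 and 120.2 FPKM in the wild-type TAA livers (log2 fold change 0.47 ± 0.36 SE, edgeR adjusted p = 0.422). In both, replicate 1 of the Nlrp3-deletion-labelled livers lay among the wild-type libraries. Cyp2a12 stood at 101, 152 and 156 FPKM in the Nlrp3-deletion-labelled livers, against 58.7, 55 and 55.4 FPKM in the wild-type TAA livers, without overlap (log2 fold change 0.88 ± 0.23 SE, edgeR adjusted p = 0.0641). Cyp2d9 stood at 277, 337 and 296 FPKM in the Nlrp3-deletion-labelled livers, against 180.2, 159 and 116 FPKM in the wild-type TAA livers (log2 fold change 0.61 ± 0.25 SE, edgeR adjusted p = 0.159). Cyp2d10 stood at 318, 321 and 253 FPKM in the Nlrp3-deletion-labelled livers, against 221, 184 and 178 FPKM in the wild-type TAA livers (log2 fold change 0.24 ± 0.22 SE, edgeR adjusted p = 0.5). Neither overlapped in FPKM, and neither passed the test. Cyp2d26 stood at 279.6, 230.4 and 189.5 FPKM in the Nlrp3-deletion-labelled livers, against 189, 117 and 157 FPKM in the wild-type TAA livers (log2 fold change 0.25 ± 0.23 SE, edgeR adjusted p = 0.509), the lowest value of the Nlrp3-deletion-labelled livers being just above the highest of the wild type. Cyp2d22 stood at 69.1, 53.2 and 34.7 FPKM in the Nlrp3-deletion-labelled livers, against 56, 37.9 and 48.8 FPKM in the wild-type TAA livers and overlapped (log2 fold change -0.21 ± 0.28 SE, edgeR adjusted p = 0.655). Cyp2c23 stood at 47.3, 52.9 and 76.9 FPKM in the Nlrp3-deletion-labelled livers, against 32, 28.9 and 19.2 FPKM in the wild-type TAA livers, without overlap and not called (log2 fold change 0.74 ± 0.30 SE, edgeR adjusted p = 0.149). The other Cyp2d members tested had log2 fold changes from -0.10 for Cyp2d11 to 2.44 for Cyp2d12, and the 3 Cyp2b members tested from -0.21 for Cyp2b9 to 3.07 for Cyp2b10, none called by edgeR. DESeq2 called Cyp2b10 (adjusted p = 0.00716), Cyp2d12 (adjusted p = 0.000262) and Cyp2d40 (adjusted p = 0.0167) higher.

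Some members lay lower in the Nlrp3-deletion-labelled livers, none of them called by edgeR. Cyp2j9 stood at 8.5, 2.42 and 1.09 FPKM in the Nlrp3-deletion-labelled livers, against 24.2, 14.6 and 12.8 FPKM in the wild-type TAA livers (log2 fold change -2.41 ± 0.71 SE, edgeR adjusted p = 0.0804), without overlap. Cyp2j8 stood at 0.78, 0.26 and 0.24 FPKM in the Nlrp3-deletion-labelled livers, against 1.6, 1.07 and 1.27 FPKM in the wild-type TAA livers (log2 fold change -1.96 ± 0.60 SE, edgeR adjusted p = 0.086), also without overlap. DESeq2 called both lower, at adjusted p = 0.00201 for Cyp2j9 and adjusted p = 0.0151 for Cyp2j8, and limma on FPKM called Cyp2j9 (adjusted p = 0.0251). Both lie in the chromosome 4 block with Cyp2j5, which rose. Cyp2j6 of the same block stood at 17.6, 19.9 and 16.4 FPKM in the Nlrp3-deletion-labelled livers, against 19.8, 15 and 14.2 FPKM in the wild-type TAA livers and overlapped (log2 fold change -0.24 ± 0.20 SE, edgeR adjusted p = 0.46). Cyp2a22 stood at 22.7, 5.3 and 3.65 FPKM in the Nlrp3-deletion-labelled livers, against 26.2, 14 and 30.2 FPKM in the wild-type TAA livers (log2 fold change -1.44 ± 0.67 SE, edgeR adjusted p = 0.199), where replicate 1 lay among the wild-type libraries. Among the single-gene subfamilies, Cyp2r1 stood at 2.21, 3.82 and 3.88 FPKM in the Nlrp3-deletion-labelled livers, against 2.03, 1.26 and 1.05 FPKM in the wild-type TAA livers (log2 fold change 0.81 ± 0.33 SE, edgeR adjusted p = 0.157). Cyp2u1 stood at 1.48, 0.62 and 0.62 FPKM in the Nlrp3-deletion-labelled livers, against 1.24, 1.09 and 1.21 FPKM in the wild-type TAA livers (log2 fold change -0.73 ± 0.41 SE, edgeR adjusted p = 0.278). Cyp2r1 did not overlap and Cyp2u1 did. Cyp2g1 stood at 0.5, 0.39 and 1.2 FPKM in the Nlrp3-deletion-labelled livers, against 0.22, 0.27 and 0.36 FPKM in the wild-type TAA livers (log2 fold change 0.88 ± 0.59 SE, edgeR adjusted p = 0.359). Cyp2s1 stood at 0.19, 0.2 and 0.16 FPKM in the Nlrp3-deletion-labelled livers, against 0.18, 0.08 and 0.07 FPKM in the wild-type TAA livers (log2 fold change 0.39 ± 0.57 SE, edgeR adjusted p = 0.679). Both are low in liver, and Cyp2t4, not tested, did not exceed 0.43 FPKM.

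**Figure D5:**
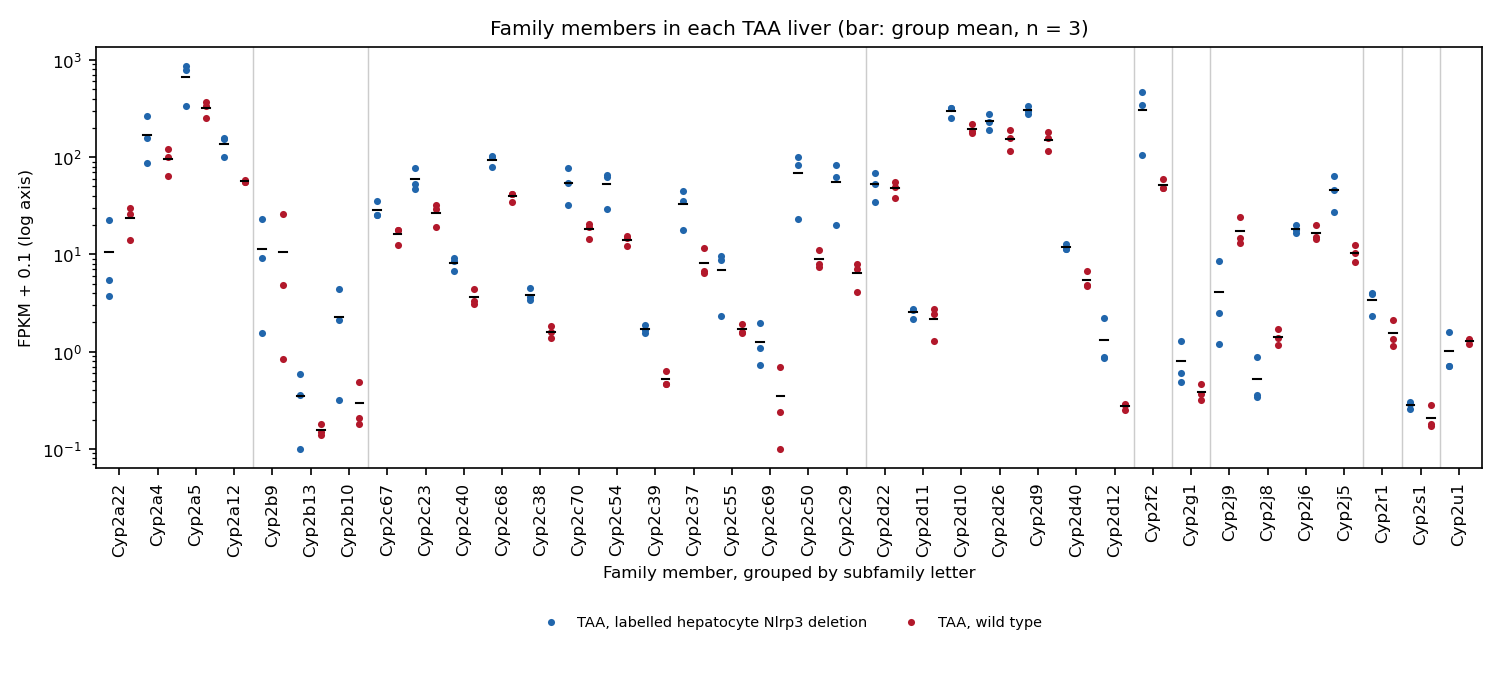
FPKM + 0.1 (log axis) of the 36 members tested in each TAA library, with Nlrp3-deletion-labelled livers left of wild-type TAA livers and a bar at each group's mean. Cyp2c29, Cyp2c50, Cyp2f2 and Cyp2b10 have means furthest above those of the wild type, and Cyp2j9 and Cyp2j8 means furthest below.

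Of the same 6 genes listed as electron donors or haem-binding partners, only Por, which donates the electrons, was called. It stood at 120 FPKM, 189 FPKM and 182 FPKM in the Nlrp3-deletion-labelled livers, against 69.1, 47.4 and 54.6 FPKM in the wild-type TAA livers (log2 fold change 1.15 ± 0.22 SE, edgeR adjusted p = 0.05). None of 12 haem genes, 25 transcription factors, 11 growth hormone control genes, 10 oxidation partners or 11 other P450 genes was called, and of 12 inflammatory genes Il1r1 fell (log2 fold change -1.43 ± 0.25 SE, edgeR adjusted p = 0.0487). Hepatocyte markers moved with the members: their summed level was 39782 to 43108 FPKM in the Nlrp3-deletion-labelled livers, against 17265 to 19889 FPKM in the wild-type TAA livers, and 3 of 9 were called higher, Serpina1a (1.21), Fgb (1.30) and Ahsg (1.70). Macrophage markers summed to 82.7 to 292 FPKM in the Nlrp3-deletion-labelled livers, against 72.9 to 86.2 FPKM in the wild-type TAA livers. Stellate and myofibroblast markers summed to 37.7 to 132 FPKM in the Nlrp3-deletion-labelled livers, against 24.1 to 44.9 FPKM in the wild-type TAA livers. In each of these lists 0 of 10 were called, and no marker was at 0. Pericentral markers summed to 524 to 819 FPKM in the Nlrp3-deletion-labelled livers, against 256 to 275 FPKM in the wild-type TAA livers, with 0 of 10 called. Periportal markers summed to 1802 to 3782 FPKM in the Nlrp3-deletion-labelled livers, against 637 to 989 FPKM in the wild-type TAA livers, and 1 of 10 was called higher, Ass1 (1.76). Sinusoidal endothelium markers summed to 29.8 to 73.5 FPKM in the Nlrp3-deletion-labelled livers, against 20.9 to 21.7 FPKM in the wild-type TAA livers, with 0 of 8 called. These 3 sums did not overlap. Of the cholangiocyte, lymphocyte and neutrophil markers tested, 0 were called. The part of these cell types in the members' differences was not tested. The calls depended on the fit. DESeq2 called 16 members higher, and 18 members and 3640 of 18619 genes in either direction. Without replicate 1 of the Nlrp3-deletion-labelled livers 19 members were called higher, where calls over all genes also rose. The median log2 fold change of that fit was 0.94 over the members and -0.11 over all genes. No member was called higher when any other library was left out, with RLE factors or with the replicate number as a block.

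In hepatocytes given LPS and nigericin, MCC950 gave no called change in any member. Of 47 members, 22 were tested with limma among 9835 genes, and 0% of genes were called higher and 0% lower, while edgeR on the reads recovered also called none. At an unadjusted p under 0.05 there were 1168 genes and 5 members, and the smallest adjusted p was 0.301 for any gene and 0.39 for any member. All 22 log2 fold changes lay between -0.20 and 0.21, with a median of 0.01 against -0.01 over all genes. In simulated data with this spread 90% of 2-fold changes were recovered. Nlrp3 itself had 4, 1 and 3 reads with MCC950, against 1, 0 and 4 reads without it.

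The 5 members with an unadjusted p under 0.05 moved little. Cyp2d26 stood at 139, 137 and 125 FPKM with MCC950, against 157, 150 and 153 FPKM without it (log2 fold change -0.20 ± 0.06 SE, unadjusted p = 0.0109, limma adjusted p = 0.39). Cyp2f2 stood at 126, 134 and 126 FPKM with MCC950, against 145, 142 and 149 FPKM without it (log2 fold change -0.17 ± 0.05 SE, limma adjusted p = 0.39). Both were lower in every library with MCC950, by little. Cyp2r1 stood at 4.56, 4.52 and 4.4 FPKM with MCC950, against 4.01, 3.88 and 3.68 FPKM without it (log2 fold change 0.18 ± 0.05 SE, limma adjusted p = 0.393). Cyp2c68 stood at 33.3, 28.5 and 30.1 FPKM with MCC950, against 27.8, 23.6 and 27.4 FPKM without it (log2 fold change 0.21 ± 0.09 SE, limma adjusted p = 0.414). These 2 genes were higher in every library with MCC950. The last of the 5, Cyp2d40, had a log2 fold change of -0.18 ± 0.06 (SE, limma adjusted p = 0.394). Cyp2c70 stood at 467, 416 and 457 FPKM with MCC950, against 488, 386 and 408 FPKM without it (log2 fold change 0.07 ± 0.10 SE, limma adjusted p = 0.77). Cyp2d10 stood at 356, 319.8 and 346 FPKM with MCC950, against 408, 317 and 311 FPKM without it (log2 fold change -0.01 ± 0.11 SE, limma adjusted p = 0.972). The highest value of each came from replicate 1 without MCC950, and the groups overlapped.

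The remaining abundant members in hepatocytes were as close. Cyp2b10 stood at 137, 129.8 and 140 FPKM with MCC950, against 165, 130.2 and 139 FPKM without it. Cyp2c29 stood at 141, 125 and 136 FPKM with MCC950, against 147, 114 and 139 FPKM without it. Both overlapped between the groups, and their log2 fold changes were -0.08 ± 0.09 for Cyp2b10 and 0.01 ± 0.10 for Cyp2c29 (SE). Cyp2d9 stood at 94.8, 91.3 and 93 FPKM with MCC950, against 106, 96.2 and 103 FPKM without it (log2 fold change -0.13 ± 0.05 SE, limma adjusted p = 0.421), and was lower in every library with MCC950. Cyp2a12 stood at 93.6, 86.4 and 93.9 FPKM with MCC950, against 107, 92.1 and 90.9 FPKM without it. Cyp2c23 stood at 51.6, 49.1 and 48 FPKM with MCC950, against 47.4, 49.1 and 45 FPKM without it. Cyp2j5 stood at 45.9, 43.4 and 47.5 FPKM with MCC950, against 43, 40.9 and 45.4 FPKM without it. These 3 overlapped. The sex-biased Cyp2a4 and Cyp2b9 were under 1 FPKM in all hepatocyte libraries, Cyp2u1 reached 0.204 FPKM at most, Cyp2g1, Cyp2s1 and Cyp2t4 stayed below that, and Cyp2w1 had no read. Macrophage markers summed to 94.9 to 106 FPKM with MCC950, against 97.1 to 108 FPKM without it, with Trem2 at 0. Only 2 of the 10 averaged 1 FPKM or more, and these carried the sum. Cholangiocyte markers summed to 187 to 194 FPKM with MCC950, against 186 to 202 FPKM without it, with 3 of 6 averaging 1 FPKM or more. Stellate and myofibroblast markers summed to 0.77 to 1.06 FPKM with MCC950, against 1.04 to 2.56 FPKM without it, with Col1a1 and Acta2 at 0 in both groups.

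Promoter letters were compared across the family as a description. RefSeq gave a single promoter of 300 bases for 37 members, more than 1 for 2 and none for 8, out of 32851 promoters, and both strands were searched for 6 motifs, which can overlap. The C/EBP motif TTGCNNAA was in 13 of 37 member promoters (35.1%), against 10.8% of all promoters. The nuclear receptor half-site AGGTCA was in 12 of 37 (32.4%), against 16.3%. The STAT and BCL6 motif TTCNNNGAA was in 2 of 37 (5.4%), against 8.3%, and the FOXA motif TGTTTAC also in 2 (5.4%), against 3.6%. The D-box TTATGTAA was in 0 of 37, against 0.9%, and the palindromic HNF1 motif in 0, against 3 promoters of all. Members in 1 cluster arose by duplication and share much of this sequence, up to 99.3% between Cyp2b9 and Cyp2b13, so these counts are not independent.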

How the data were processed

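The 21 mouse RNA-seq libraries were grouped by genotype and treatment as labelled. The submitters' processing notes list HISAT2 2.2.1, featureCounts 1.5.0-p3 and mm10. Per the file headers, the authors deposited raw counts per gene beside FPKM for TAA. The CCl4 and hepatocyte tables hold FPKM and gene lengths only, as deposited by the authors, and no source used here tells how these FPKM were scaled. Dividing FPKM times length by the worth of 1 read in each library gave whole reads per gene for 100% of values above 0, to within 0.05. FPKM times length in kilobases summed to 822718 to 1344060 in the CCl4 table, so the deposited scaling was not to a fixed sum.

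The members, gene lists and tests were chosen with earlier results of these data known. Every member is accounted for by subfamily. Values in each library are given for members called, the 10 most abundant of a table and subfamilies with 1 gene, and genes outside the family are named only from the lists. For the FPKM-only tables limma 3.58.1 was fitted with a trend on log2(FPKM + 1) to genes averaging 1 FPKM or more, the 3 groups of the CCl4 table in 1 fit. The TAA comparison used edgeR 4.0.16 (filterByExpr, TMM, quasi-likelihood test) on counts. Tests were two-sided, adjusted by Benjamini-Hochberg over all genes tested, and called under 0.05. Versions were 4.3.3 for R and 1.42.0 for DESeq2, used as an alternative. Errors are SD over 3 libraries, or SE of a fold change. Simulated data with known changes in a small part of all genes were used as a check. There 2-fold changes were called in 1% of changed genes for CCl4, 0% for TAA and 90% for MCC950, and 4-fold changes in 58%, 39% and 92%.

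The main fits used no replicate block, and the block was an alternative only. Replicate numbers were counted as a possible pairing where every same-numbered pair deviated together with a correlation over 0.1. This is a sign from the data only, as no label ties a number to a litter or day. CCl4 against oil met this (0.23, 0.32 and 0.52), as did Sting knockout against wild type (0.19, 0.18 and 0.12). A fit with the number as a replicate block gave 14 members lower under CCl4, without Cyp2c29, and 0 between genotypes. Further alternatives covered pseudocount, low-value filter, scaling, edgeR on recovered reads, DESeq2, RLE factors, limma on the TAA FPKM and each library left out. The TAA fit without mitochondrial, rRNA and pseudogene counts, and naming the library with Xist among those left out, were chosen after seeing the data. Promoters are from RefSeq on GRCm38.p6 and were searched with Biopython 1.88. The reads of near-identical members could be split by the counting, and no source used here states the strandedness.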

Additional observations from a re-analysis of the deposited data

How the results depend on the processing

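No member's fold change reversed in a called result. Of all member results under the alternatives, 1465 kept their side of the threshold, 85 lost and 69 gained a call, with none for the Sting and MCC950 comparisons, where 0 members were called throughout. For CCl4 against oil (0 higher, 15 lower), edgeR on recovered reads called 2 higher (Cyp2a4 and Cyp2b9), and leaving out 1 library gave 0 to 2 higher and 9 to 14 lower. The lowest count, 9, came without oil replicate 2 or 3, 10 came without oil replicate 1 and 11 came with no filter. Among the 15, leaving out 1 library gave limma adjusted p up to 0.137 for Cyp2c29, 0.127 for Cyp2d40, 0.11 for Cyp2d9, 0.0755 for Cyp2f2, 0.065 for Cyp2j6 and 0.0599 for Cyp2d22. For Sting-knockout-labelled CCl4 livers against oil (0 higher, 11 lower), edgeR called 1 higher (Cyp2a4), and leaving out 1 library gave 5 (without oil replicate 3) to 14 lower. With the replicate block it was 10 lower, although only replicate 2 correlated over 0.1 (0.02, 0.18 and 0.09).

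For TAA (4 higher, 0 lower), DESeq2 called 16 higher and 2 lower, no filter 11 and 1, limma on FPKM 18 and 1, the fit without mitochondrial, rRNA and pseudogene counts 8 higher, and RLE factors 0. Leaving out 1 library gave 0 to 19 higher and 0 to 4 lower, with 19 and 4 without replicate 1 of the Nlrp3-deletion-labelled livers and 0 without any other. The replicate block gave 0 higher, where same-numbered libraries did not deviate together (0.08, -0.04 and -0.02). For MCC950 the correlations were 0.18, 0.22 and 0.09, and the replicate block called 0 members.

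Over all genes, CCl4 against oil (1058 higher, 708 lower) gave 1969 higher with edgeR, 1182 and 1045 with the replicate block, and 674 to 941 higher and 262 to 580 lower with 1 library left out. The Sting-knockout-labelled livers against oil (921, 680) gave 1702 higher with edgeR, and 543 to 888 higher and 238 to 783 lower with 1 library left out. TAA (255, 67) gave 2129 and 1511 with DESeq2, 2426 and 216 with limma on FPKM, 1137 and 456 with no filter, 561 and 138 without mitochondrial, rRNA and pseudogene counts, 1 and 0 with RLE factors, 2 and 0 with the replicate block, and 0 to 3570 higher and 0 to 3985 lower with 1 library left out. The Sting comparison gave up to 2 genes lower, with no filter, and MCC950 up to 1 in either direction. The causes were not tested. The 13 members of the CCl4 table and 25 of the hepatocyte table under 1 FPKM in every library fell below the filter and were not tested.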

Other observations

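Because reads of near-identical members can be assigned to either gene, sums over pairs are given as values. Cyp2c67 shares most windows with Cyp2c69 (14.3%) and Cyp2c68 with Cyp2c40 (16.7%). The sum of Cyp2c67 and Cyp2c68 therefore does not settle the sharing of their reads. Cyp2a4 and Cyp2a5 together stood at 10.2, 65 and 3.27 FPKM in the Sting-knockout-labelled CCl4 livers and 52.3, 6.29 and 47.7 FPKM in wild-type livers given CCl4, against 167.9, 158.8 and 140.2 FPKM in the oil livers, so the sum was below the oil livers in all 6 CCl4 livers. Under TAA the same sum was 419.9, 1128 and 946 FPKM in the Nlrp3-deletion-labelled livers, against 466, 399.96 and 375 FPKM in the wild-type TAA livers, and overlapped. Cyp2c40 and Cyp2c69 together stood at 0.256, 1.67 and 0.152 FPKM in the Sting-knockout-labelled CCl4 livers and 0.761, 0.0772 and 107.8 FPKM in wild-type livers given CCl4, against 7.39, 8.34 and 7.77 FPKM in the oil livers. Every CCl4 liver without Xist was below the oil livers in this sum. Under TAA it was 9.06, 10.9 and 7.62 FPKM in the Nlrp3-deletion-labelled livers, against 3.8, 3.11 and 4.35 FPKM in the wild-type TAA livers, without overlap. Cyp2c67 and Cyp2c68 together stood at 159.6, 236.9 and 82.6 FPKM in the Sting-knockout-labelled CCl4 livers and 139.6, 47.4 and 343 FPKM in wild-type livers given CCl4, against 282, 309 and 412 FPKM in the oil livers. The highest wild-type value is the library with Xist, which lay inside the oil range, while the other 5 CCl4 livers were below it. Under TAA this sum was 104, 128 and 136 FPKM in the Nlrp3-deletion-labelled livers, against 59.8, 52.6 and 54.1 FPKM in the wild-type TAA livers, without overlap.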
